A study of Mus musculus with 6 samples.

Results

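RNA polymerases copy DNA into RNA, and these results describe the messages that encode their subunits. Every mouse gene whose symbol starts with Polr1, Polr2 or Polr3, together with Polrmt, was taken, with pseudogenes left out. This gave 29 protein-coding genes among 51912 genes with matched transcripts, and all 29 were among the 13231 genes with enough counts to be tested. Subunits that carry other symbols, such as Znrd1 or Crcp, fall outside the name rule and are described with the wider machinery.

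The cells were E14, a mouse embryonic stem cell line, and their polyadenylated RNA was sequenced at successive steps of RAPIDASH, a ribosome purification that needs no tag. All cells, those of the reference group included, received cycloheximide at 100 µg/mL for 3 min, a drug that halts ribosomes on their messages. Lysates were spun through a sucrose cushion, which pellets ribosomes; 1 portion of the resuspended pellet was extracted directly (3 pellet libraries) and the other was passed over a cysteine-charged sulfhydryl resin and eluted (3 eluate libraries). The question was what the resin adds to the cushion: which messages become more or less frequent once it has been used. The labels number the libraries 1 to 3 in each group, but they do not say whether a pellet and an eluate of the same number come from the same cushion, and they name no separate cultures, and p-values therefore measure only how far these libraries scatter.

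Eukaryotic cells divide nuclear transcription among several enzymes. RNA polymerase I (Pol I) makes the large ribosomal RNA precursor, Pol II makes messenger RNA, and Pol III makes transfer RNA, the small ribosomal RNA of the large subunit and other short RNAs. Each enzyme has a pair of very large subunits that form the active site, a set of small subunits common to all of them, and smaller subunits of its own. Mitochondria use a separate polymerase, Polrmt, which is a single large polypeptide. Stem cells divide fast and have a high demand for ribosomal and transfer RNA.

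Coding sequences of 6 members are shown because the largest differences, and the exceptions among them, fell on messages that differ in coding length and in base composition. They are Polr2e (highest fold change), Polr2l and Polr2k (the shortest shared subunits, 1 called higher and 1 not called), Polr2b and Polr3b (lowest fold changes), and Polrmt (a long message rich in G and C). Each line gives the bases of the GENCODE mouse release 21 transcript 5′ to 3′ from the start codon, either the first 201 bases or, for Polr2l and Polr2k, the whole coding sequence without its stop codon. Capitals mark a G or C at the last position of a codon.
Polr2e: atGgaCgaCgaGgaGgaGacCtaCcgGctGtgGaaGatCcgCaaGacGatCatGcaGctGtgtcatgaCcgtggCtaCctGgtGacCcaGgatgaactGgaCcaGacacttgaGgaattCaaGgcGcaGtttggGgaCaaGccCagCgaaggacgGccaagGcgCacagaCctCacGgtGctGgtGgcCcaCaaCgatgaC
Polr2l: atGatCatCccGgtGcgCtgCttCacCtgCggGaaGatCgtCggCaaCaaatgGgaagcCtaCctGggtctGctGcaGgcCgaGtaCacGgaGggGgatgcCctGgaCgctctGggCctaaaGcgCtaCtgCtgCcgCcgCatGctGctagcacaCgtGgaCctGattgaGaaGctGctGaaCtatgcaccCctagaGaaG
Polr2k: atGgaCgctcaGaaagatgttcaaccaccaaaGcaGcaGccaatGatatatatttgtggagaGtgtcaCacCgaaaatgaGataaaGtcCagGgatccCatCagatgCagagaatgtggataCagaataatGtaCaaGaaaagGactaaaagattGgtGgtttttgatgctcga
Polr2b: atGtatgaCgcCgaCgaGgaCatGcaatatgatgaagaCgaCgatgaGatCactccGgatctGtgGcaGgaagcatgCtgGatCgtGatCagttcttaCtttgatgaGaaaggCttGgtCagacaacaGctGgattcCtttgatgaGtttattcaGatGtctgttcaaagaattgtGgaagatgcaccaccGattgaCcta
Polr3b: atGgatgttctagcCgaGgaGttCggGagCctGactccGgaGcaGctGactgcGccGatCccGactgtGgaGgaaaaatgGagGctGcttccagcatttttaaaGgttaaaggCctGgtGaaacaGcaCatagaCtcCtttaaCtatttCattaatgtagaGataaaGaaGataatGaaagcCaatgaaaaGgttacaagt
Polrmt: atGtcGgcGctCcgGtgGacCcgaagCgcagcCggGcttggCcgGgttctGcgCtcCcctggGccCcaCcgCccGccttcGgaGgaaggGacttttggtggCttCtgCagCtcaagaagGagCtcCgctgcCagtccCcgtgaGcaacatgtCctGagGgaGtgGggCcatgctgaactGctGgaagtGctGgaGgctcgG
Polr2e (ENSMUSG00000004667), Polr3b (ENSMUSG00000034453) and Polrmt (ENSMUSG00000020329) lie on chromosome 10, Polr2b (ENSMUSG00000029250) on chromosome 5, Polr2l (ENSMUSG00000038489) on chromosome 7 and Polr2k (ENSMUSG00000045996) on chromosome 15. In the stretches shown, 79.1% of codons of Polr2e, 82.1% of Polr2l and 67.2% of Polrmt ended in G or C, against 55.2% of Polr3b, 50.7% of Polr2b and 41.4% of Polr2k. Over the whole coding sequence the shares were 79.0% for Polr2e, 76.3% for Polrmt, 54.5% for Polr3b and 47.3% for Polr2b. The median over tested coding genes was 61.4%, with the 10th percentile at 43.0% and the 90th at 74.0%.

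Libraries held 7.84e+06 to 1.16e+07 estimated read counts. Along the leading principal component pellet 1 (-19.1) stood between the other pellets (-42.9 and -45.3) and the eluates (30.5 to 41.8), so results that change without it are given both ways. The cell label was checked on marker genes. All 10 embryonic stem cell markers had a mean of at least 1 TPM, with summed TPM of 11557 to 12952 in the pellets and 15355 to 15416 in the eluates. Dppa5a made up most of these sums (7134 to 8008 TPM in the pellets and 10196 to 10364 in the eluates). In the edgeR test described below, 4 of the 10 were called higher and 3 lower in the eluates, beside 24.5% and 28.2% of all genes. Feeder fibroblast markers summed to 5.69 to 9.07 TPM in the pellets and 9.03 to 12.3 in the eluates, with Postn at 0. Thy1 made up most of that sum (5.56 to 8.91 TPM in the pellets and 8.87 to 12.2 in the eluates). The trophectoderm markers summed to 8.30 to 12.6 TPM over the 6 libraries, with Elf5 at 0, the neural markers to 46.8 to 61.7, the endoderm markers to 3.45 to 5.76 and the mesoderm markers to 2.66 to 3.05. Tubb3 made up most of the neural sum (40.6 to 54.8 TPM). Eomes made up most of the mesoderm sum (2.14 to 2.67 TPM) and is also on the trophectoderm list, so it counts in both. A mean of at least 1 TPM was also reached by 3 of 4 neural, 2 of 4 trophectoderm, 2 of 6 endoderm, 1 of 4 mesoderm and 1 of 4 feeder markers. All values are relative to a library's total, and in bulk RNA fewer cells with a message and less of it per cell cannot be told apart. Levels below are CPM, a gene's share of the counts scaled by TMM factors, which is compared for 1 gene between libraries, and TPM, which is also divided by length. Values for the libraries are given in the order of their numbers. Fold changes are log2 values of eluate over pellet with their standard error (SE), from 3 libraries per group, and a gene is called when the quasi-likelihood test of edgeR gives it a Benjamini-Hochberg adjusted p under 0.05.

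Of the 29 members, 11 were called higher in the eluates, 9 lower and 9 were not called. Over all genes tested, 24.5% were called higher and 28.2% lower, 52.7% in all. The direction went with size and role in part. All 6 of the largest subunits of Pol I, II and III were lower, as was Polrmt. Of the 5 subunits shared by the 3 nuclear enzymes 4 were higher, as were 5 of the 6 further Pol II genes. Polr3f and Polr3g, with coding sequences of 947 and 666 bases, were lower. The short Polr1c, Polr2k, Polr3gl and Polr3k were not called. Size and role go together in the largest subunits and cannot be told apart there. The median log2 fold change of the members was 0.049, beside 0.0035 over all genes, and their range ran from -1.17 (Polr2b) to 0.80 (Polr2e). Without both libraries numbered 2 the count of lower members was 5, and without both numbered 3 it was 4. Over all fits that left out libraries, 2662 to 4039 of all genes were called lower, against 3736 with every library. By individual values, the CPM ranges of the groups did not overlap for 21 members, 13 higher and 8 lower in the eluates, where 60.3% of all genes had ranges apart (29.1% higher and 31.2% lower).

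**Figure D1:**
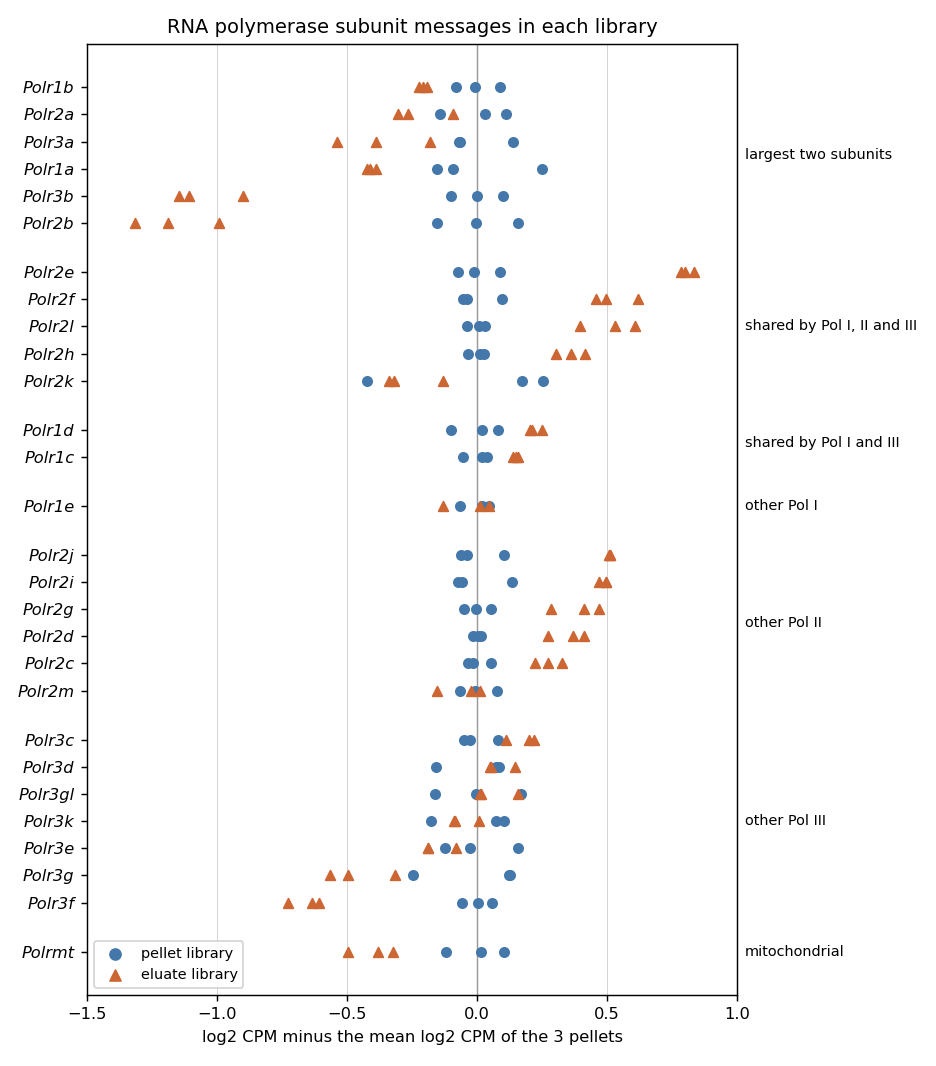
Each row is a member named in the text, ordered by role, and each symbol is a library, with pellets as circles and eluates as triangles. The horizontal axis is log2 CPM minus the mean log2 CPM of the 3 pellets, so that the 3 triangles of Polr2b lie far to the left and those of Polr2e far to the right, while Polr2k has pellets on both sides of its eluates.

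The largest subunits were lower in the eluates, and the second-largest subunits of Pol II and Pol III fell most. Polr2b, the second-largest subunit of Pol II, had CPM of 122, 152 and 136 in the pellets and 68.3, 59.8 and 54.7 in the eluates. All eluates were below all pellets, and the level in the eluates was 2.24-fold lower (log2 fold change -1.17 ± 0.096 SE; edgeR adjusted p = 3.38e-07). Polr3b, its Pol III counterpart, had CPM of 63.9, 73.4 and 68.4 in the pellets and 30.9, 36.7 and 31.7 in the eluates. Again the groups were far apart, 2.07-fold lower (-1.05 ± 0.093; adjusted p = 3.97e-07 in the same edgeR test). The counterpart in Pol I lay nearer to 0. Polr1b had CPM of 77.2, 68.6 and 72.1 in the pellets and 63.5, 62.8 and 62.1 in the eluates, groups that did not overlap but lay close together (-0.21 ± 0.078; edgeR adjusted p = 0.0322). That call was not stable to the loss of single libraries, with an edgeR adjusted p of 0.0623 without pellet 1 (-0.17), 0.0702 without pellet 3 and 0.0747, 0.0962 and 0.0896 without eluates 1, 2 and 3.

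The largest subunit of each enzyme also had a fold change nearer to 0 than Polr2b and Polr3b. Polr2a, whose repetitive tail is phosphorylated as Pol II starts and elongates, had CPM of 119, 112 and 99.5 in the pellets and 103, 91.3 and 88.9 in the eluates. Eluate 1 lay above pellet 3, so the groups overlapped (-0.22 ± 0.084; edgeR adjusted p = 0.0344). Without pellet 2, eluate 2 or eluate 3 it was not called, at edgeR adjusted p values of 0.0935, 0.132 and 0.15. Polr1a, the largest subunit of Pol I, had CPM of 38.0, 30.0 and 28.7 in the pellets and 24.4, 23.8 and 24.0 in the eluates. Pellet 1 was the highest of the 6 libraries, and the groups did not overlap (-0.42 ± 0.12; edgeR adjusted p = 0.00615, and -0.29 with adjusted p = 0.0211 without pellet 1). For Polr3a, the largest subunit of Pol III, CPM was 39.1, 33.9 and 33.9 in the pellets and 31.4, 24.5 and 27.1 in the eluates. The highest eluate, eluate 1, was just below the lowest pellet (-0.36 ± 0.11; edgeR adjusted p = 0.0118), and without eluate 2 the gene was not called (-0.28, adjusted p = 0.0773).

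Among the 5 subunits present in all 3 nuclear polymerases, 4 were higher in the eluates and Polr2k stood apart. Polr2e, the largest of these small subunits and the most abundant member per length, had CPM of 371, 346 and 331 in the pellets and 621, 601 and 607 in the eluates. All eluates were well above all pellets, a 1.75-fold rise (0.80 ± 0.065; edgeR adjusted p = 1.95e-07). For Polr2f, an acidic subunit placed near the base of the clamp, CPM was 188, 209 and 190.1 in the pellets and 268, 300.2 and 275 in the eluates. Polr2l, a tiny zinc-binding subunit of the assembly platform, had CPM of 111, 116 and 114 in the pellets and 164, 173 and 149 in the eluates. Polr2h had CPM of 81.7, 82.5 and 79.0 in the pellets and 100.1, 108 and 104 in the eluates. In each of these genes the lowest eluate was above the highest pellet. Their log2 fold changes were 0.52 ± 0.07 for Polr2f (edgeR adjusted p = 1.54e-05), 0.51 ± 0.073 for Polr2l (adjusted p = 2.69e-05) and 0.36 ± 0.072 for Polr2h (adjusted p = 0.000551).

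Polr2k, another tiny zinc-binding shared subunit, was at CPM of 23.8, 35.9 and 37.9 in the pellets and 29.1, 25.2 and 25.5 in the eluates. Pellet 1 was the lowest of all 6 libraries, the other pellets were the highest, and the gene was not called (-0.29 ± 0.15; edgeR adjusted p = 0.133). Without pellet 1 it was called lower, with a log2 fold change of -0.47 and an edgeR adjusted p of 0.000113. Its GC content of 38.1% was the lowest of the members, and its last codon positions, printed above beside those of Polr2l, held the fewest G and C bases of the 6 sequences.

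Polr1c and Polr1d form a pair on which both Pol I and Pol III assemble. Polr1d had CPM of 148, 168 and 161 in the pellets and 189, 184 and 183 in the eluates, with every eluate above every pellet (0.22 ± 0.068; edgeR adjusted p = 0.0136, and 0.0545 without eluate 1). Polr1c had CPM of 170.3, 168 and 159.5 in the pellets and 185, 184 and 182 in the eluates. Here too the eluates lay above the pellets, but by less, and the gene was not called (0.15 ± 0.064; edgeR adjusted p = 0.0664). Without pellet 1 Polr1c was called higher, at 0.16 with an edgeR adjusted p of 0.0245. Pol II uses Polr2c and Polr2j in the same place, and both were higher. Polr2c had CPM of 134, 126 and 128 in the pellets and 162, 156 and 151 in the eluates (0.27 ± 0.067; edgeR adjusted p = 0.00286). For Polr2j, CPM was 93.2, 105 and 94.7 in the pellets and 139, 139 and 138 in the eluates, with the 3 eluates almost equal and above every pellet (0.51 ± 0.071; edgeR adjusted p = 2.46e-05).

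The remaining Pol II genes rose with one exception. Polr2d and Polr2g, which make up the stalk of the enzyme, had CPM of 112, 113 and 114 in the pellets and 136, 150.0 and 146 in the eluates for Polr2d, and of 81.1, 84.4 and 78.6 in the pellets and 108, 113 and 99.0 in the eluates for Polr2g. Neither gene's groups overlapped, and the log2 fold changes were close to each other (0.35 ± 0.069, adjusted p = 0.000483, and 0.39 ± 0.076, adjusted p = 0.000464, edgeR). Polr2i, a small zinc-binding subunit that aids cleavage of the RNA after backtracking, had CPM of 69.3, 79.0 and 68.5 in the pellets and 99.9, 102 and 102 in the eluates. The eluates lay close to each other and above all pellets (0.48 ± 0.077; edgeR adjusted p = 8.7e-05). Polr2m, a Pol II-associated protein that restrains the enzyme and is not part of its core, ranked 3 of 29 by TPM in the pellets and 4 in the eluates. Its CPM was 507, 537 and 488 in the pellets and 458, 502 and 514 in the eluates, with overlapping groups and no call (-0.056 ± 0.068; edgeR adjusted p = 0.516).

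Of the Pol III genes outside the pair of large subunits, Polr3f and Polr3g were lower. Polr3c, Polr3f and Polr3g (or its paralog Polr3gl in its place) form a subcomplex needed to start transcription at Pol III promoters. Polr3f had CPM of 36.0, 37.4 and 34.6 in the pellets and 23.6, 23.2 and 21.7 in the eluates. The eluates were all below the pellets (-0.66 ± 0.097; edgeR adjusted p = 4.05e-05). Polr3g, the form that is abundant in stem cells, had CPM of 80.7, 104 and 104 in the pellets and 64.6, 76.8 and 67.8 in the eluates. Pellet 1 was closest to the eluates but still above them (-0.47 ± 0.1; edgeR adjusted p = 0.00157). Polr3gl, the form typical of differentiated tissue, was at CPM of 24.6, 27.7 and 22.0 in the pellets and 24.8, 24.9 and 27.5 in the eluates with overlapping groups and no call (0.049 ± 0.11; edgeR adjusted p = 0.741). The remaining subunit of that subcomplex, Polr3c, had CPM of 48.0, 51.7 and 47.3 in the pellets and 56.9, 52.9 and 56.3 in the eluates. Its ranges were apart by a small margin, and it was not called (0.17 ± 0.082; edgeR adjusted p = 0.0879).

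Polr3d and Polr3e form a heterodimer that helps initiation and termination. Polr3d had CPM of 51.5, 51.1 and 43.6 in the pellets and 50.4, 50.2 and 53.8 in the eluates, and Polr3e had CPM of 82.9, 68.2 and 72.9 in the pellets and 70.4, 65.2 and 65.3 in the eluates. Both overlapped between groups and were not called (0.075 ± 0.089 and -0.16 ± 0.086; edgeR adjusted p = 0.509 and 0.141). Polr3k, the small zinc-binding counterpart of Polr2i, had CPM of 55.4, 67.3 and 65.9 in the pellets and 58.9, 58.9 and 62.9 in the eluates and also overlapped (-0.062 ± 0.088; edgeR adjusted p = 0.583).

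Polr1e, a Pol I subunit that partners the product of Cd3eap and promotes initiation and elongation, had CPM of 36.3, 36.9 and 34.2 in the pellets and 37.0, 32.6 and 36.0 in the eluates. Pellets and eluates were mixed in order (-0.025 ± 0.093; edgeR adjusted p = 0.84). Polrmt, the mitochondrial enzyme, had CPM of 24.1, 22.0 and 25.7 in the pellets and 19.1, 16.9 and 18.3 in the eluates. Every eluate was below every pellet, 1.32-fold lower (-0.40 ± 0.12; edgeR adjusted p = 0.00923).

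Per unit of length the shared subunits, the further Pol II genes, Polr1c and Polr1d were more abundant than each of the largest subunits in both groups. This did not hold for every smaller subunit. Polr3f had a mean TPM of 9.44 in the pellets and 5.96 in the eluates, below the large Polr2a at 16.3 and 13.0. On the TPM scale, as mean ± SD of 3 libraries, Polr2e was highest at 367 ± 43.4 in the pellets and 587 ± 16.5 in the eluates, followed by Polr2f at 325 ± 18.7 and 429.8 ± 19.2. In the pellets these neighbours were within their spread. Polr1a was lowest at 3.45 ± 0.823 and 2.39 ± 0.0620, below Polrmt at 6.95 ± 0.679 and 4.77 ± 0.334. Polr2b changed place most, from rank 15 of 29 in the pellets (35.4 ± 1.17 TPM) to rank 22 in the eluates (15.3 ± 1.86 TPM). Among large subunits in the pellets it was the most abundant per length, and in the eluates it was level with Polr1b (15.1 ± 0.307 TPM), within their spread.

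The summed levels show the shift between the classes. The mean log2 CPM of the 6 largest subunits minus that of the 5 shared subunits was -0.66, -0.85 and -0.88 in the pellets and -1.69, -1.80 and -1.77 in the eluates. All eluates lay further below 0 than all pellets, and pellet 1 was the nearest to 0, on the side away from the eluates. As summed TPM, the shared subunits exceeded the largest ones 10.2, 10.8 and 10.7 times in the pellets and 22.0, 24.4 and 24.5 times in the eluates, or 10.6 ± 0.357 against 23.6 ± 1.42 (mean ± SD). Both sums differed between the groups, as summed TPM of the shared subunits went from 1012 ± 44.0 to 1362 ± 8.44 and that of the largest from 95.9 ± 7.18 to 57.8 ± 3.74. Most of the rise lay in Polr2e (367 to 587 TPM) and Polr2f (325 to 429.8), while the shared Polr2k went from 127 to 100.4. Most of the fall lay in Polr2b (35.4 to 15.3) and Polr3b (14.3 to 6.56). By fitted values the median log2 fold change was -0.39 for the largest and 0.51 for the shared subunits, a difference of -0.91. It was -0.78 without pellet 1 and -0.81 without eluate 2. No p is given for this difference, because the classes were formed with earlier results of these data known.

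**Figure D2:**
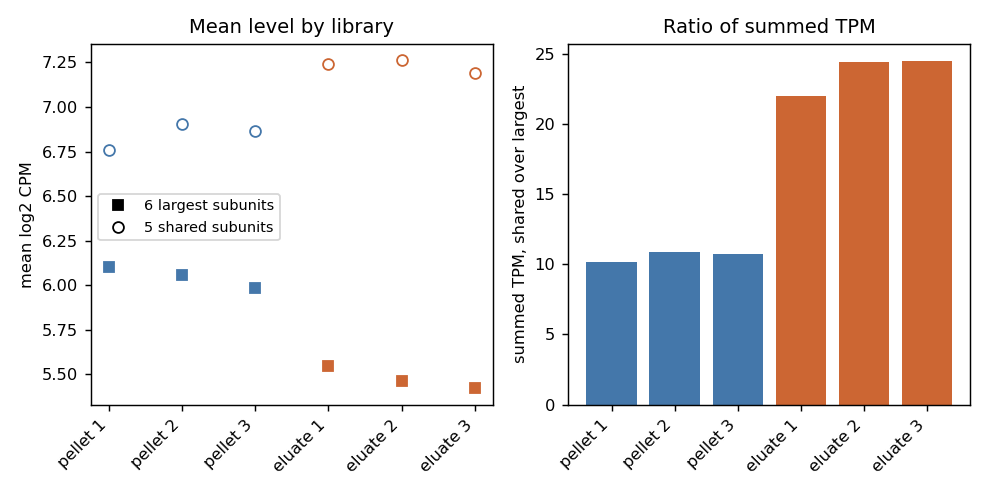
The left panel gives the mean log2 CPM of the 6 largest subunits (squares) and the 5 shared subunits (open circles) in each library, and the right panel the ratio of their summed TPM as bars from 0. The circles are higher and the squares lower in every eluate than in every pellet, and the ratio goes from 10.2 to 10.8 in the pellets to 22.0 to 24.5 in the eluates.

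Some subunits of the same enzyme had messages whose ratio lay in separate ranges in the groups. The log2 ratio of CPM was taken within each library for 8 pairs, all of them partners in one enzyme except Polr3g and Polr3gl, which are paralogs that take the same place, which removes any scaling of the library. CPM is not divided by length, so the change of a ratio is read here and not its level. The ranges of the groups were apart for 5 of them, the paralogs included, where an exact two-sided permutation test of 3 against 3 libraries gives 0.1, the smallest p it allows (Benjamini-Hochberg adjusted 0.16 over the 8 pairs). With that limit no pair could be called at 0.05. The share of pairs apart among other genes was not computed, and 60.3% of single genes tested had ranges apart. Polr2a over Polr2b went from -0.045, -0.44 and -0.45 in pellets 1, 2 and 3 to 0.59, 0.61 and 0.70 in the eluates, with every eluate above every pellet. Polr3a over Polr3b went from -0.71, -1.11 and -1.01 to 0.020, -0.58 and -0.23. In Pol I the difference was smaller and in the other direction, as Polr1a over Polr1b went from -1.02, -1.20 and -1.33 to -1.38, -1.40 and -1.37. Polr3g over its paralog Polr3gl went from 1.71, 1.91 and 2.24 to 1.38, 1.62 and 1.30. Polr2c over Polr2j went from a mean of 0.41 ± 0.13 to 0.17 ± 0.050 (SD, n = 3). The ratios of Polr1c to Polr1d, Polr2d to Polr2g and Polr3d to Polr3e overlapped between groups, with exact two-sided permutation p values of 0.5, 0.7 and 0.2.

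Fold changes went with length and base composition across the members. The 11 higher members had coding sequences of 201 to 825 bases (median 420.3) and a median GC content of 54.1%, and the 9 lower members 666 to 5910 bases (median 3522) and a median GC content of 51.0%. Lengths and compositions of genes with several transcripts are averages weighted by counts. Spearman's rho of the log2 fold change across the 29 members was -0.78 with transcript length, -0.64 with coding length, 0.58 with GC content and 0.68 with the share of codons ending in G or C. Over the 12233 tested coding genes the same values were -0.48, -0.42, 0.72 and 0.64. These are descriptions across genes that share their libraries, and genes are not replicates. Members of like length could have unlike values. Polr2b and Polr1b have coding sequences of 3522 and 3405 bases and log2 fold changes of -1.17 and -0.21, with GC contents of 46.0% and 51.1%. Polr3f and Polr3g, lower with coding sequences of only 947 and 666 bases, had GC contents of 41.8% and 43.8%. Polrmt, lower with a GC content of 60.9%, the highest of the members, has a coding sequence of 3621 bases.

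**Figure D3:**
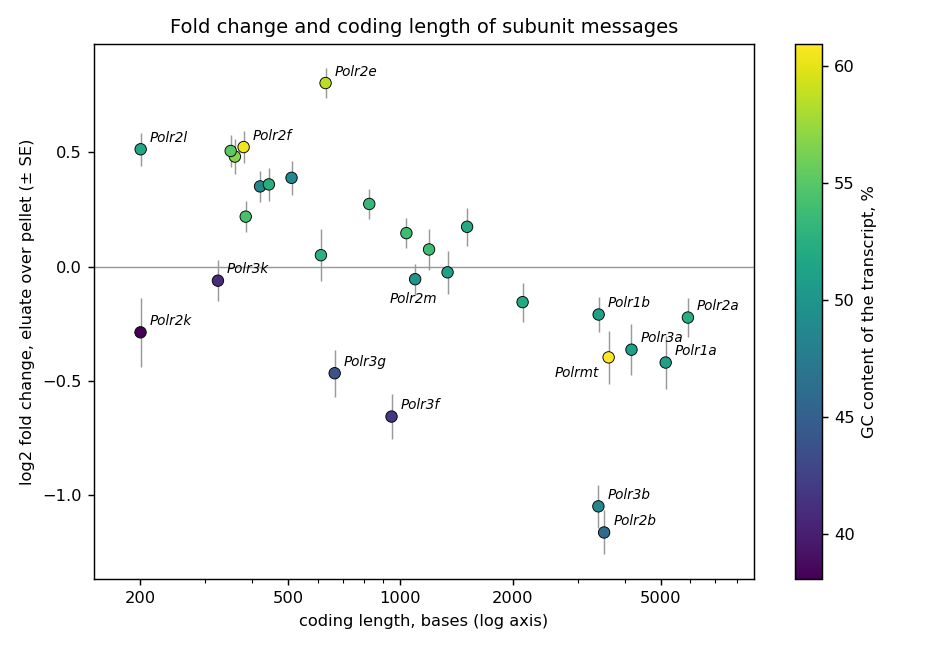
Each point is a member named in the text, with its coding length in bases on a log axis and its log2 fold change ± SE of eluate over pellet on the vertical axis, coloured by GC content. Members with short coding sequences lie mostly above 0 and the 7 longest all lie below it, and the members below 0 with coding sequences shorter than that of Polr1c, namely Polr2k, Polr3k, Polr3f and Polr3g, are dark, with GC contents of 38.1% to 43.8%.

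The smooth trend of each library in GC content and transcript length was then removed before the test. Coding length was not part of that trend. Spearman's rho of the resulting fold change with coding length was still -0.54 over the members and -0.35 over the tested coding genes. With transcript length it was -0.30 and -0.046. With this trend removed 6 members were higher and 7 lower, where 19.0% of all genes were called higher and 15.9% lower, 34.9% in all. Of the 20 members called at first, 7 kept their call and direction (Polr2d, Polr2e, Polr2g and Polr2l higher, and Polr2b, Polr3b and Polrmt lower), Polr1d was called in the other direction, and 12 were not called. The same split over all called genes is not given. Polr2b remained low at -0.70 (edgeR adjusted p = 8.22e-08) and Polr3b at -0.72 (adjusted p = 6.34e-08), while Polr1a, Polr1b, Polr2a and Polr3a were not called, at 0.0039, -0.12, -0.001 and -0.20. Polrmt moved further down, to -0.75 (edgeR adjusted p = 4.25e-06). Polr2e was at 0.20 (adjusted p = 0.00264) and Polr2l at 0.31 (adjusted p = 0.000265), and Polr2f at -0.16 was not called. The 4 messages poorest in GC, below 0 at first, were then above it. Polr2k was at 0.51 (edgeR adjusted p = 0.00019) and Polr3k at 0.70 (adjusted p = 2.37e-08), both called higher, and Polr3f and Polr3g were at 0.15 and 0.065 with no call. In the other direction, Polr1c (-0.24), Polr1d (-0.21) and Polr3gl (-0.29), above 0 at first, were called lower. Polr3e (-0.19), already below 0 at first, was then also called lower. The median fold change was then -0.16 for the largest subunits and 0.20 for the shared ones, a difference of -0.36. Whether length and composition set the changes of single members was not tested.

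**Figure D4:**
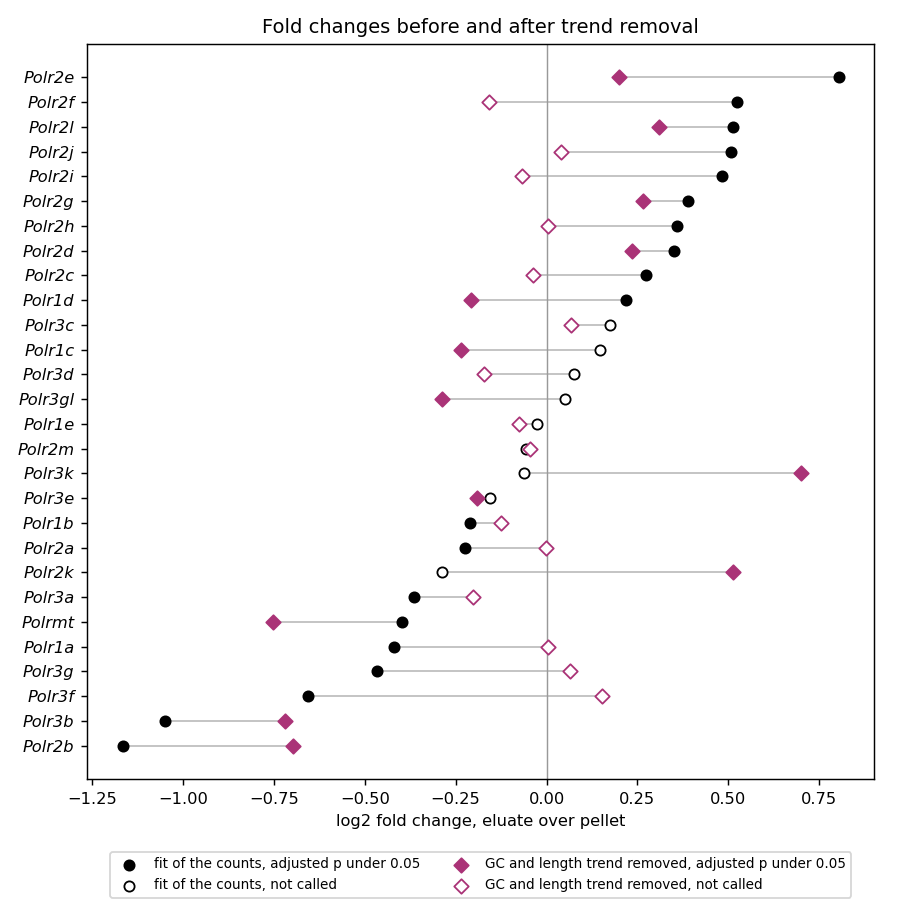
Each row is a member named in the text, with its log2 fold change from the fit of the counts as a circle and after removal of the GC and length trend as a diamond, filled where the adjusted p is under 0.05. Polr2b and Polr3b stay to the left in both, Polr2e stays to the right at a smaller value, and Polr2k and Polr3k cross from the left of 0 to the right.

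Reads of some members can be assigned to more than one gene. The members had 60 matched transcripts, 7 genes with 1 and 22 with several, and in 15 of the 22 a single transcript held at least 90% of the pellet counts. Transcript shares differed between groups without overlap in few genes. Polr1d-201 held 51.9%, 49.9% and 49.9% of Polr1d counts in the pellets and 53.8%, 56.5% and 57.6% in the eluates. Polr3c-201 held 87.4%, 88.7% and 84.7% of Polr3c counts in the pellets and 80.9%, 77.9% and 71.3% in the eluates. These shares come from a statistical assignment of reads and were not tested. The use of strand in counting was not given in the sources used here, so overlap with a gene on the opposite strand also matters. Of the 31-base stretches of Polr2i, 30.1% lie in Tbcb on the other strand (7540 counts over all libraries, against 5168 for Polr2i), of Polr2f 24.3% in 1700088E04Rik (68 against 14231), of Polr2c 16.5% in Dok4 and of Polr2j 13.2% in Lrwd1. Processed pseudogenes on record share stretches too, 15.8% of Polr1d with Gm12751 (575 counts), 23.2% of Polr2k with Gm14567 (6 counts) and 21.7% of Polr2h with Gm7511 (3 counts). Values of these members carry that uncertainty.

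The wider machinery of each enzyme was examined through 5 lists, which were drawn up with earlier results of these data known. Of 10 Pol I subunits and factors with other symbols, 2 were higher and 6 lower (median -0.46). Znrd1, the Pol I relative of Polr2i, rose (0.42 ± 0.074; edgeR adjusted p = 0.000212), while Twistnb, in the Pol I stalk, fell by 0.98 on the log2 scale (SE 0.11; edgeR adjusted p = 4.24e-06). Ubtf, the upstream binding factor of ribosomal DNA and the most abundant of the list, was not called (-0.13 ± 0.064; edgeR adjusted p = 0.0886), nor was Cd3eap (-0.26 ± 0.11; adjusted p = 0.0532). Of 17 Pol III subunits and factors, 4 were higher and 6 lower (median -0.027). Maf1, a repressor of Pol III, rose (0.56 ± 0.074; edgeR adjusted p = 1.25e-05), and Gtf3c3, a subunit of the promoter factor TFIIIC, fell by 1.16 (SE 0.1; adjusted p = 3.14e-07). Crcp, a small Pol III subunit, was not called (-0.027 ± 0.085; edgeR adjusted p = 0.813).

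Of 32 general factors of Pol II, 8 were higher and 14 lower (median -0.11). Taf10, a small subunit of the promoter factor TFIID, rose (0.60 ± 0.065; edgeR adjusted p = 2.26e-06), and Gtf2a1, a subunit of TFIIA, fell by 0.97 (SE 0.089; adjusted p = 4.84e-07). Among 25 tested of 27 elongation and assembly factors, 6 were higher and 14 lower (median -0.31). Nelfe, of the complex that holds Pol II near promoters, rose (0.53 ± 0.075; edgeR adjusted p = 2.66e-05), and Ctr9, the scaffold of the PAF complex, fell by 1.53 (SE 0.11; adjusted p = 7.29e-08). Tcea1, the cleavage-stimulating elongation factor and the most abundant of its list, was lower (-0.42 ± 0.082; edgeR adjusted p = 0.000519). Of 8 genes listed as mitochondrial transcription factors, 0 were called higher and 5 lower (median -0.50). Mterf2 fell by 1.35 (SE 0.19; edgeR adjusted p = 3.02e-05), Tfam, which packages mitochondrial DNA, fell by 0.32 (SE 0.084; adjusted p = 0.00484), and Tfb1m was not called (0.024 ± 0.14; adjusted p = 0.897). All lists are to be read against 24.5% of all genes called higher and 28.2% lower.

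Removal of the GC and length trend changed several of these counts and calls, beside 19.0% of all genes called higher and 15.9% lower in that fit. The balance of the general factors of Pol II turned, with 11 higher and 5 lower (median 0.027). The Pol I list had 0 higher and 6 lower, the Pol III list 3 and 3, the elongation and assembly factors 5 and 9, and the mitochondrial list 1 and 2. Tcea1 (0.44, edgeR adjusted p = 6.01e-07) and Tfam (0.18, adjusted p = 0.0259), both lower at first, were then called higher. Znrd1 (0.14), Twistnb (-0.035), Gtf2a1 (0.058) and Nelfe (0.023) were no longer called. Taf10 (0.75) and Maf1 (0.14) were still called higher, and Ctr9 (-1.28), Gtf3c3 (-0.29) and Mterf2 (-0.94) lower. Ubtf (-0.32), Cd3eap (-0.55) and Crcp (-0.23), not called before, were called lower, and Tfb1m (0.17) was again not called.

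The authors' deposited table of the same comparison held 17 of the 29 members, all in the direction found here. Each of them had an adjusted p under 0.05 in its Wald test, the highest being 0.047 for Polr2a. The mean counts summed here were 0.997 to 1.006 times those deposited. The match in direction therefore comes from the same counts and is no independent support. In the authors' deposited table the log2 fold change was -1.13 for Polr2b, -1.04 for Polr3b and 0.77 for Polr2e. Polr1b and Polr1d were called here and were not among the members in the authors' deposited table. Whether a threshold left out the other members was not tested.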

How the data were processed

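Poly(A) RNA of 3 pellet and 3 eluate libraries was measured. Build GRCm39 and the tools Salmon 1.10.3, STAR 2.7.11b, cutadapt 4.7 and DESeq2 1.44.0 are named per the submitters' processing notes, without their roles. The annotation release was not given in the sources used here. For each transcript the authors' Salmon output holds, per the file headers, its effective length, its length, TPM and an estimated count. The authors' deposited comparison holds, per the file headers, p-values raw and adjusted, a Wald score, log2 fold changes and their errors, and the mean normalized count as a signal.

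Of 84226 transcripts, 76858 matched GENCODE mouse release 21 by identifier. The other 7368 held 1.63% to 2.35% of counts and were left out. Its build differs from that of the files, and coordinates on the genome are left out. Members and lists were chosen with earlier results of these data known. All members are named but 1, which is not reported here and enters only values taken over all members. In each machinery list the genes named are those with the smallest p higher, the smallest p lower and the highest mean CPM, and Cd3eap and Crcp were added as further subunits.

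Estimated counts were summed per gene, rounded and tested over 13231 genes in R 4.3.3 with edgeR 4.0.16 (robust quasi-likelihood fit, TMM, filterByExpr, Benjamini-Hochberg, threshold 0.05). The SE was obtained as the absolute change over the root of F. The trend in GC content and transcript length was removed with splines of 5 degrees of freedom as offsets. The fits were tested on simulated data. Alternatives were other scaling, filters and thresholds, DESeq2 1.42.0, limma 3.58.1 (voom, or log2 of TPM plus 1 or 0.1), an effective-length offset, mitochondrial genes left out, a replicate block, and leaving out libraries. Other steps ran in Python 3.11.15 (numpy 2.4.6, pandas 2.3.3, matplotlib 3.10.9).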

Additional observations from a re-analysis of the deposited data

How the results depend on the processing

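In all, 24 alternatives were run for each member, and 6 of the 20 called members kept their call and direction in every one: Polr2b, Polr2d, Polr2e, Polr2g, Polr2l and Polr3b. The same share over all called genes is not given, so this count cannot be set against that of other genes. With TPM in place of counts, limma called 1889 of 12095 genes higher at a pseudocount of 1 and 1886 at 0.1. In the counts edgeR called 3241 of 13231, so both the test and the genes tested differ. The difference between the largest and the shared subunits was -0.80 at a pseudocount of 1 and -0.88 at 0.1. Polr1a, Polr1b, Polr1d, Polr2a and Polr2c were not called on the TPM scale, and DESeq2 did not call Polr1b or Polr2a. With the GC and length trend removed, 6 members were higher and 7 lower. Of all genes, 2516 were higher in place of 3241 and 2105 lower in place of 3736. The difference between the classes was -0.36 in that fit. Fold changes that turned, among members called in that fit or the main one, were 0.0039 for Polr1a, -0.24 for Polr1c and -0.21 for Polr1d. Among Polr2 genes they were -0.036 for Polr2c, -0.16 for Polr2f, -0.067 for Polr2i and 0.51 for Polr2k. Among Polr3 genes they were 0.15 for Polr3f, 0.065 for Polr3g, -0.29 for Polr3gl and 0.70 for Polr3k. Polr3d, called in neither fit, went from 0.075 to -0.17. With GC alone removed, 2487 genes were lower, the difference was -0.81, and Polr2k was at 0.77, Polr3f at 0.081, Polr3g at 0.12 and Polr3k at 0.76. The cause was not tested.

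Deviations of same-numbered libraries had correlations of 0.070, 0.15 and -0.010, and those of other-numbered pairs between the groups ran from -0.18 to 0.11. Pellet 2 correlated best with eluate 2 (0.15), but pellet 1 with eluate 3 (0.11). With 3 libraries per group these values cannot settle whether libraries of the same number share a pellet, and the main fit has no block. With the number as a replicate block, 3306 genes were higher and 3770 lower, and no member changed its call. With the block and the GC and length trend removed, 6 members were higher, 2088 genes were lower and the difference was -0.36. Values that turned, among members called in that fit or the main one, were 0.0084 for Polr1a, -0.23 for Polr1c and -0.21 for Polr1d. Among Polr2 genes they were 0.00014 for Polr2a, -0.036 for Polr2c, -0.16 for Polr2f, -0.064 for Polr2i and 0.50 for Polr2k. Among Polr3 genes they were 0.15 for Polr3f, 0.068 for Polr3g, -0.28 for Polr3gl and 0.70 for Polr3k.

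Leaving out single libraries or both of a number gave 9 to 12 members higher, 4 to 9 lower, 1949 to 3722 genes higher, 2662 to 4039 lower and a difference between the classes of -0.97 to -0.78. Among alternatives that leave out libraries, calls lost only without both of a number were Polr3g without 3 (-0.39), Polr2c without 2 (0.26) and Polrmt without 2 or 3 (-0.41 and -0.35). Precision differed between members: Polrmt, Polr3gl and Polr2k, at 16.9 to 37.9 CPM, had standard errors of 0.11 to 0.15 on the log2 scale, Polr1e, at 32.6 to 37.0 CPM, had 0.093, and Polr2e had 0.065. How far depth sets these errors was not tested.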
